A study of Mus musculus with 8 samples.

Results

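The glucocorticoid response was read in mouse liver from 8 genes, Nr3c1, Fkbp5, Tsc22d3, Sgk1, Dusp1, Zbtb16, Mt1 and Mt2, taken by gene name from the array spots that are not controls. They are 8 of the 34836 gene or transcript names on the array and were covered by 10 probes of 55681, with 2 probes each for Nr3c1 and Mt1 and 1 for every other gene. Each of the 10 probes was detected well above background in all 8 mice. Liver RNA came from 4 NZO mice (NZO/HiBomDife), an inbred strain prone to obesity and diabetes, and from 4 B6 mice (C57BL/6), a leaner inbred strain. All mice were male, 6 weeks old and fed a diet with 45% fat, and each gave 1 single-colour Agilent array. The strains differ across the whole genome and not in a single allele, and no drug or hormone is named in the labels. The hour of tissue collection and the fasting state are not given in the sources used here.

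Glucocorticoids are adrenal steroids released in a daily rhythm and under stress. In the hepatocyte they bind the glucocorticoid receptor, which chaperones hold ready in the cytoplasm, and the receptor then moves to the nucleus and regulates genes of glucose production, amino acid breakdown and inflammation. Metallothioneins are small, cysteine-rich proteins that bind zinc and copper, and their genes answer to metals through the zinc sensor MTF1 as well as to glucocorticoids and inflammatory signals.

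Mt1 and Mt2 are neighbours on mouse chromosome 8, where their starts lie 6471 bases apart in RefSeq. Mt2 and the brighter Mt1 probe were high in the same mice, and the stretch before the start of each gene is therefore shown. The dimmer Mt1 probe ranked the mice differently. The sequences are from RefSeq (GRCm38.p6, plus strand), 250 bases each, at chr8:94178839-94179088 for Mt1 and chr8:94172368-94172617 for Mt2. Capitals mark matches on either strand to the core of the metal response element bound by MTF1 (TGCACNC or TGCGCNC) and to a palindromic element of the glucocorticoid receptor (half-sites GNACA and TGTNC, 3 bases apart), and no capitals overlap.
Mt1: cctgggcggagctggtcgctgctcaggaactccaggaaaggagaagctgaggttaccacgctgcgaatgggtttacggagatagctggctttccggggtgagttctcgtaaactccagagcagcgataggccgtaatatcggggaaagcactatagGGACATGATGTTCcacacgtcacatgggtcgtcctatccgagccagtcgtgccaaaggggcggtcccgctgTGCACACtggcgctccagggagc
Mt2: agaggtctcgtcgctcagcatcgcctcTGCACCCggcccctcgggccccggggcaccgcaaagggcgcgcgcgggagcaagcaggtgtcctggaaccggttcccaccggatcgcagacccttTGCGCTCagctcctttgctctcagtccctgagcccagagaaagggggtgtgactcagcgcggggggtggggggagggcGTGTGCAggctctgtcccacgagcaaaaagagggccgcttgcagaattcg
Windows of 300 bases, from 250 before to 50 after the start, held 3 matches to the metal element in Mt1 and 4 in Mt2. Of 32851 such RefSeq windows, 25.7% held at least 1 match and 1.97% held 3 or more. The receptor element had 1 match in Mt1 (GGACATGATGTTC, bases -94 to -82 from the start) and 1 in the 6 windows of Sgk1 (GAACAGAATGTTC, -188 to -176), while 0.475% of all windows held one. The windows of Mt2, Fkbp5, Dusp1 and Tsc22d3 had 0 matches to it, which says only that these letters are not in these windows.

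Levels are given as log2 of the processed signal minus the 75th percentile of the same array, so that 0 is the level below which 75% of the spots lie. This percentile was 119 to 142 intensity units in NZO and 136 to 159 in B6. The hepatocyte markers Alb, Ttr, Apoa1, Cps1 and Tat were well above background on all arrays, with summed signals of 3789 to 3917 in NZO and 3002 to 3766 in B6 (mostly Alb), in multiples of the 75th percentile. Between the strains 0 of the 5 passed limma's adjusted test with the fold limit, and 0 had an unadjusted p under 0.05. Xist was at background on all 8 arrays, whereas Ddx3y and Eif2s3y of the Y chromosome were above it on all 8. A pair of arrays stood apart by the skeletal muscle markers Ckm, Acta1, Myh4 and Tnnt3, of which Myh4 was the most abundant. Their summed signal, in multiples of the 75th percentile, was 17.7 in NZO mouse 007 and 5.70 in B6 mouse 010, against 0.136 to 0.303 in the other NZO mice and 0.396 to 1.40 in the other B6 mice. The part of muscle RNA in the results was not tested. The arrays lay on 5 slides, of which only 1 held both strains (NZO mouse 003 with B6 mice 010 and 015), and were scanned on 2 days that each held both. With slide as a fixed term the strains are therefore compared through NZO mouse 003 and B6 mice 010 and 015 alone.

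Between the strains, 1 of the 10 member probes, that of Fkbp5, passed the limits (adjusted p at most 0.05, fold change of 0.7 or more on the log2 scale), and it was higher in NZO. Of all 27623 probes tested, 9.62% passed in either direction and 4.33% were higher in NZO, so that 1 of 10 is close to the background share. Without NZO mouse 007 and B6 mouse 010 it was again 1, and without B6 mouse 015 it was 2. All probes together gave 1197 higher and 1459 lower in NZO, and 576 higher and 1421 lower in the deposited table taken as given, in which the median of all probes was shifted to -0.15. With limma's p left unadjusted, 3 member probes passed, those of Fkbp5, Mt1 and Dusp1, against 12.2% of all probes. By the methods' t-test, unadjusted, 2 passed, those of Fkbp5 and Dusp1, against 2899 of all 27623 probes.

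**Figure D1:**
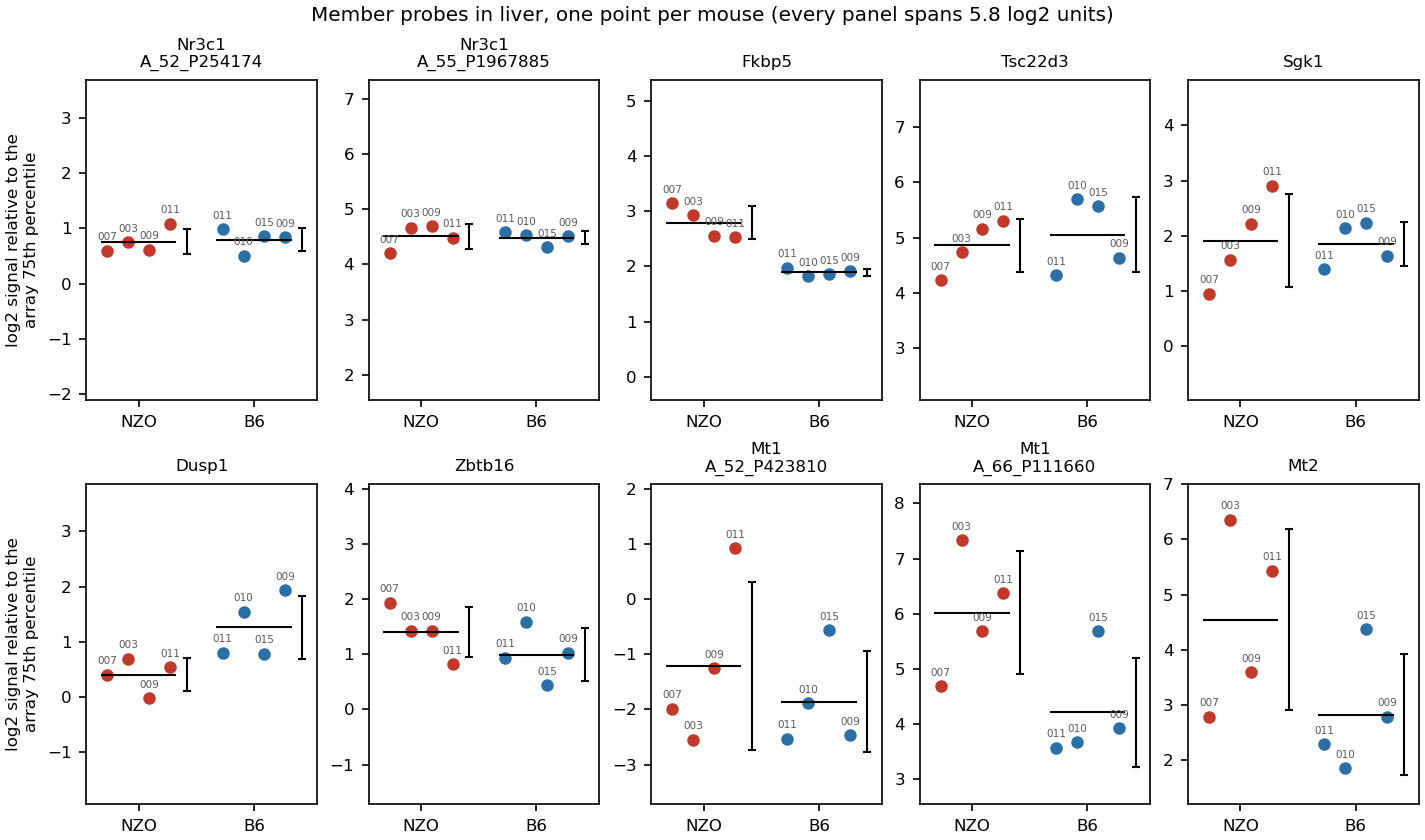
Level of each member probe in every mouse (y axis, log2 signal relative to the 75th percentile of the array). Points are single mice (NZO and B6, 4 each), horizontal lines are strain means and bars are 1 SD. Fkbp5 and Dusp1 separate the strains without overlap, whereas Mt1 and Mt2 spread widely within both.

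Nr3c1 encodes the glucocorticoid receptor itself, and neither of its probes separated the strains. The brighter probe (A_55_P1967885) gave 4.20, 4.66, 4.69 and 4.48 in the NZO mice 007, 003, 009 and 011, and 4.59, 4.53, 4.32 and 4.51 in the B6 mice 011, 010, 015 and 009. NZO minus B6 was 0.02 on the log2 scale (SE 0.13, 95% interval -0.28 to 0.33, limma adjusted p = 0.930). The second probe (A_52_P254174) gave -0.04 (SE 0.15, interval -0.38 to 0.31, adjusted p = 0.904). Both intervals lie inside the fold limit of 0.7, and the sign of these small values changed when single mice were left out, for the brighter probe also with the scaling.

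Fkbp5 encodes FKBP51, a co-chaperone that lowers the affinity of the receptor for its hormone and is itself induced by the receptor. Its probe lies at chr17:28536060-28536119 (mm9). The level was 3.14, 2.92, 2.56 and 2.53 in NZO and 1.98, 1.82, 1.86 and 1.91 in B6, in the same order of mice. Every NZO mouse lay above every B6 mouse, and 22.0% of all probes tested had strains that did not overlap, as had 2 of the 10 member probes. The mean was 2.79 ± 0.30 in NZO and 1.89 ± 0.07 in B6 (SD, n = 4). NZO was higher by 0.90 on the log2 scale (SE 0.15, interval 0.55 to 1.24, limma adjusted p = 0.00512), a fold of 1.86. The B6 mice hardly differed from each other, and the spread lay in NZO, where mouse 007 was highest. The call held without any single mouse (0.78 to 0.98, adjusted p from 0.00648 to 0.0195), but it was lost in the methods' t-test after Benjamini-Hochberg adjustment (adjusted p = 0.0660). In the deposited table as given the difference was 0.61, under the fold limit (adjusted p = 0.0245), and relative to the median of all probes there it was 0.76. On the slide with both strains the difference was 1.08, and within the scan days it was 0.83 and 1.20.

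**Figure D2:**
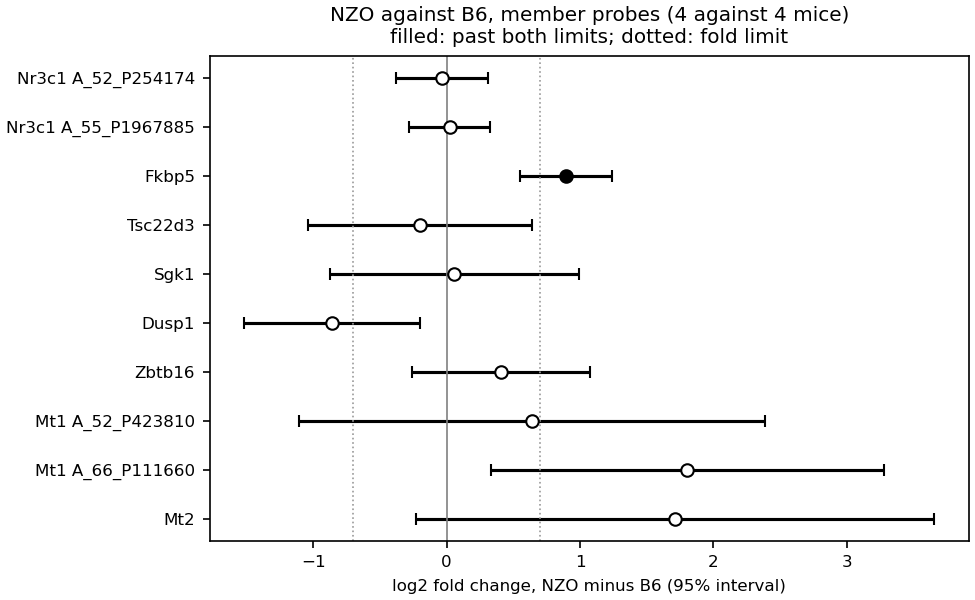
Difference between NZO and B6 for each member probe (x axis, log2 fold change; bars, 95% interval; 4 mice each). Fkbp5, at 0.90, passed both limits, and the intervals of Mt1 and Mt2 are the widest.

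The other targets of the receptor were measured with 1 probe each. Tsc22d3 encodes GILZ, a leucine zipper protein that mediates part of the anti-inflammatory action of glucocorticoids. Its level was 4.22, 4.74, 5.16 and 5.30 in NZO and 4.32, 5.70, 5.56 and 4.64 in B6. The strains overlapped, with a difference of -0.20 (SE 0.37, interval -1.04 to 0.64, adjusted p = 0.769). Sgk1 encodes a kinase that regulates ion transport. Its level was 0.95, 1.57, 2.22 and 2.91 in NZO and 1.40, 2.14, 2.24 and 1.64 in B6, and the difference was 0.06 (SE 0.41, interval -0.87 to 0.99, adjusted p = 0.943). The interval of Sgk1 reached beyond the fold limit in both directions and that of Tsc22d3 in the negative direction, and the sign of both turned when single mice were left out. In both, NZO mouse 007 was the lowest and NZO mouse 011 the highest of its strain, while B6 mice 010 and 015 lay above B6 mice 011 and 009. The low mice NZO 007, B6 011 and B6 009 are those scanned on the second day. For Tsc22d3 all 3 lay below every mouse of the first day (4.22 to 4.64 against 4.74 to 5.70), and for Sgk1 the days overlapped only by NZO mouse 003. On the slide with both strains the differences were -0.89 for Tsc22d3 and -0.62 for Sgk1, and on the scan days they were -0.56 and -0.25, and 0.04 and -0.57.

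Zbtb16 encodes PLZF, a zinc finger repressor. Its level was 1.94, 1.43, 1.43 and 0.82 in NZO and 0.93, 1.59, 0.43 and 1.03 in B6, and the strains overlapped (difference 0.41, SE 0.29, interval -0.26 to 1.07, adjusted p = 0.410). Dusp1 encodes a phosphatase that switches off the stress kinases p38 and JNK, and it is induced by glucocorticoids and also as an immediate early gene. Its level was 0.41, 0.69, -0.01 and 0.54 in NZO and 0.81, 1.55, 0.79 and 1.94 in B6. Every NZO mouse lay below every B6 mouse, although NZO mouse 003 and B6 mouse 015 were close. The difference was -0.86 (SE 0.29, interval -1.52 to -0.20), which did not pass after adjustment (limma adjusted p = 0.0885). In the deposited table as given it was -0.96 and passed (adjusted p = 0.0152), but relative to the shifted median of all probes there it was -0.81, against -0.88 with scaled arrays. On the slide with both strains it was -0.47, and on the scan days it was -0.76 and -0.96, against 0.42, 0.21 and 0.96 for Zbtb16.

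Mt2 and the brighter Mt1 probe differed more between the strain means than the probes of the other genes and also varied more between mice, whereas the dimmer Mt1 probe differed less than Fkbp5 and Dusp1. Mt1, measured with the probe at chr8:96704165-96704224 (mm9, A_66_P111660), had levels of 4.69, 7.33, 5.68 and 6.38 in the NZO mice 007, 003, 009 and 011. In the B6 mice 011, 010, 015 and 009 they were 3.57, 3.67, 5.68 and 3.93. Thus 3 B6 mice lay below all NZO mice, and B6 mouse 015 lay at the level of NZO mouse 009. The difference was 1.81 (SE 0.64, interval 0.33 to 3.28), a fold of 3.50, and it did not pass after adjustment (limma adjusted p = 0.107). Without B6 mouse 015 the difference was 2.29 and passed (adjusted p = 0.0429), and without any other single mouse it did not pass. On the slide with both strains it was 2.66, and on the scan days it was 1.79 and 0.94.

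Mt2 (probe at chr8:96697371-96697430, mm9) ranked the mice in much the same order. Its level was 2.79, 6.35, 3.59 and 5.43 in NZO and 2.29, 1.86, 4.38 and 2.79 in B6, so that B6 mouse 015 lay above NZO mice 007 and 009. The difference was 1.71 (SE 0.85, interval -0.23 to 3.66, limma adjusted p = 0.233), a fold of 3.28. It passed in none of the 23 alternatives, where the adjusted p was 0.108 to 0.430. When single mice were left out, the difference ranged from 1.11 to 2.3. On the slide with both strains the difference was 3.24, with NZO mouse 003 as the only NZO mouse, and on the scan days it was 2.01 and 0.25, the last with NZO mouse 007 as the only NZO mouse. NZO mice 003 and 011 were the highest of all mice for Mt2 and the brighter Mt1 probe.

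**Figure D3:**
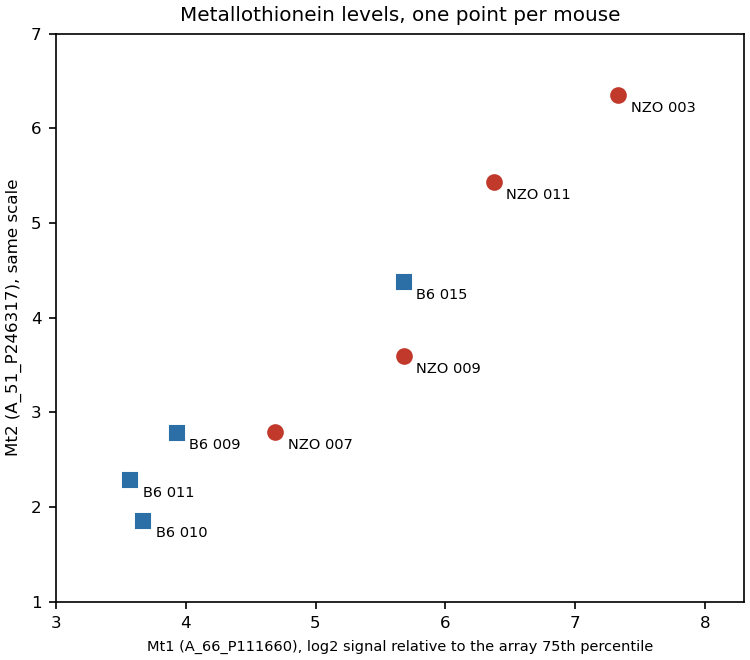
Mt1 (x axis) and Mt2 (y axis) in each of the 8 mice (log2 signal relative to the 75th percentile of the array). Mt2 and the brighter Mt1 probe, which is plotted, were highest in NZO mice 003 and 011, and B6 mouse 015 lies among the NZO mice.

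The second Mt1 probe (A_52_P423810, chr8:96703844-96703903, mm9) is assigned in the files to a cDNA clone and not to the RefSeq transcript, and it ranked the mice differently. Its level was -1.99, -2.55, -1.26 and 0.92 in NZO and -2.53, -1.88, -0.56 and -2.47 in B6, with a difference of 0.64 (SE 0.76, interval -1.11 to 2.39, adjusted p = 0.630). NZO mouse 003, the highest mouse on the other Mt1 probe, was the lowest here. Without NZO mouse 011 the difference was -0.07, and on the slide with both strains it was -1.33, against 0.26 and 0.51 on the scan days.

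The spread between mice of a strain differed widely among the members. The SD within strains, pooled over both, was 1.40 for Mt2 and 1.05 for the brighter Mt1 probe. These were higher than that of 99.6% and 98.3% of the probes tested, whose median was 0.232. The dimmer Mt1 probe had an SD of 1.25, higher than that of 99.3%. Between the lowest and the highest of the 8 mice, Mt2 spanned a fold of 22.6, the brighter Mt1 probe 13.6 and the dimmer 11.1. Sgk1 (SD 0.66) and Tsc22d3 (SD 0.59) varied more than 91.0% and 88.2% of the probes, and Zbtb16 and Dusp1 more than 80.7% and 80.0%. Fkbp5 (SD 0.21) and both Nr3c1 probes (SD 0.22 and 0.18) varied less than the median probe. Among probes within 1 log2 unit of the same level, the share with a lower SD was 99.9% for Mt2. It was 99.8% for the brighter and 98.8% for the dimmer Mt1 probe, 99.0% for Tsc22d3, 97.9% for Sgk1 and 73.3% for Fkbp5.

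The genes most like each member were taken as those with the highest Pearson r of their levels over the 8 arrays, among 13258 genes, as a description that strain, scan day and scaling can all shape. For Mt2 they were Pip5k1a (r = 0.990), Mt1 (0.966) and Sult2a7 (0.965). For Mt1 they were Clybl (0.977), Gm9199 (0.974) and Tceal8 (0.969), with Mt2 at rank 4. Tsc22d3 and Sgk1, both lower on average in the mice scanned on the second day, had an r of 0.825 with each other. Among the genes nearest to Tsc22d3 were Runx3 (0.961) and 1700094D03Rik (0.956), and those nearest to Sgk1 were Sox6 (0.974), Cyp2d13 (0.964) and Ddb2 (0.952). For Fkbp5 they were 2700046G09Rik (0.985), Pgap3 (0.983) and Ttll1 (0.981), and for Nr3c1 they were Prorp (0.969), Fam151b (0.964) and Atad1 (0.964). For Dusp1 they were Mocs1 (0.967), Bcl7a (0.965) and Sertad1 (0.961), and for Zbtb16 they were Srp54b (0.881), Vps39 (0.875) and Hnrnpl (0.867). With the other members, Fkbp5 had an r between -0.65 (Dusp1) and 0.59 (Zbtb16).

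The genes around the members were read in 10 lists of 141 genes, 127 of them tested, each through its brightest probe. In all, 4 were higher and 10 lower in NZO, while 9.98% of all 14302 genes read in this way passed. Without NZO mouse 003 or NZO mouse 009 the count was 9, and without NZO mouse 007 and B6 mouse 010 together it was 14. Among 15 genes of the receptor, its chaperones and co-regulators, 1 passed, which was Fkbp5, and the median log2 fold change was 0.02, as over all genes. Fkbp4, the co-chaperone that competes with FKBP51 in the receptor complex, was 0.36 (adjusted p = 0.128), and the chaperones Hsp90aa1, Hsp90ab1, Hspa8, Stip1 and Ptges3 were between -0.22 and 0.17. Nr3c2, the mineralocorticoid receptor, was 0.56, under the fold limit (adjusted p = 0.0331).

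Among 5 tested genes of glucocorticoid supply 0 passed limma's adjusted test with the fold limit, while 2 had an unadjusted p under 0.05 and 0 passed the methods' t-test with the same fold limit. Serpina6, the corticosteroid-binding globulin of plasma, came closest, with levels of 5.86, 5.91, 5.88 and 5.61 in NZO and 5.13, 5.01, 5.19 and 5.16 in B6. The strains did not overlap, and the difference of 0.69 was just under the fold limit (SE 0.10, adjusted p = 0.00274). With slide as a random block, with scan day as a term and without NZO mouse 011, B6 mouse 015 or B6 mouse 009, the count of this list was 1, which was Serpina6. Hsd11b1, which regenerates active hormone inside the cell, was 0.26 (adjusted p = 0.0944). For Srd5a1, a steroid 5-alpha-reductase, the probes disagreed, with -0.25 on the brighter (adjusted p = 0.315) and -4.93 on the other, which passed. Sequence variants under the probes were not analysed here.

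Of 24 further genes induced by glucocorticoids, 0 were higher and 2 lower in NZO, beside 9.98% of all genes that passed, and the median was -0.25. Without B6 mouse 010, alone or together with NZO mouse 007, 3 passed. Igfbp1, a binding protein of insulin-like growth factors, had levels of 3.78, 3.10, 4.19 and 4.27 in NZO and 6.08, 7.37, 7.13 and 6.21 in B6. The strains lay far apart, with a difference of -2.86 (SE 0.37, limma adjusted p = 0.00127). Lcn2, lipocalin 2, an acute-phase protein that binds iron carriers, was at 0.41, -0.43, -0.41 and -0.68 in NZO and 2.29, 1.13, 4.28 and 2.0 in B6 (difference -2.70, SE 0.61, adjusted p = 0.0203). Its call was lost without NZO mouse 003, 009 or 011 or B6 mouse 011 (-2.75 to -2.57, adjusted p from 0.0503 to 0.0577). It was also lost without a filter on dim probes (adjusted p = 0.0511) and in the methods' t-test after adjustment (adjusted p = 0.123). With slide as a fixed term, which rests on NZO mouse 003 against B6 mice 010 and 015, Lcn2 was -3.14. The liver targets Tat (-0.31, adjusted p = 0.428), Pck1 (-0.47, adjusted p = 0.336), Klf9 (-0.37, adjusted p = 0.123) and Per1 (-0.04, adjusted p = 0.964) did not pass. Nor did Cdkn1a (1.12, adjusted p = 0.112) and Pdk4 (0.80, adjusted p = 0.151).

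Among 4 tested genes of the metallothionein family and its regulator 0 passed limma's adjusted test with the fold limit, while 2 had an unadjusted p under 0.05 and 0 passed the methods' t-test, and the median was 0.94. Mtf1, which encodes the zinc sensor, was at -0.40, -0.20, -0.08 and -0.18 in NZO and 0.14, 0.28, 0.17 and 0.10 in B6. The strains did not overlap, and the difference of -0.39 was under the fold limit (SE 0.10, adjusted p = 0.0400), while the dimmer Mtf1 probe gave -0.05. Mt3, known from brain, was 0.17 (adjusted p = 0.766), and Mt4 was above background on 1 array in each strain and was not tested.

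Of 20 tested zinc transporters 1 passed, Slc39a5, which encodes the importer ZIP5. Its level was -2.39, -1.13, -1.96 and -1.64 in NZO, while in B6 it was not well above background on any of the 4 arrays. NZO was at least 5.58-fold higher, with each B6 array counted at the lowest signal found well above background on it or at the probe's own signal if higher (limma adjusted p = 0.000383). It was tested through NZO alone, the strain in which it is high. Among probes detected on all 8 arrays it was not tested and 0 zinc transporters passed, and with normexp background correction the fitted difference was 0.76 in place of 2.81. With scan day as a fixed term 3 zinc transporters passed, and 2 with limma's unadjusted p or with the methods' t-test unadjusted. The exporter Slc30a1, a known target of MTF1, was 0.11 (adjusted p = 0.719), and the importers Slc39a4 and Slc39a14 were 0.05 and 0.01. For Slc30a7 the brightest probe gave 0.30 and a dimmer one -2.78, which passed. Of 10 genes of copper handling 1 passed. Atox1, the chaperone that hands copper to exporting ATPases, was at 6.81, 6.77, 6.55 and 6.81 in NZO and 7.65, 7.37, 7.72 and 7.56 in B6 (difference -0.84, SE 0.11, adjusted p = 0.00178). With slide as a fixed term, which rests on NZO mouse 003 against B6 mice 010 and 015, its difference was -0.77.

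**Figure D4:**
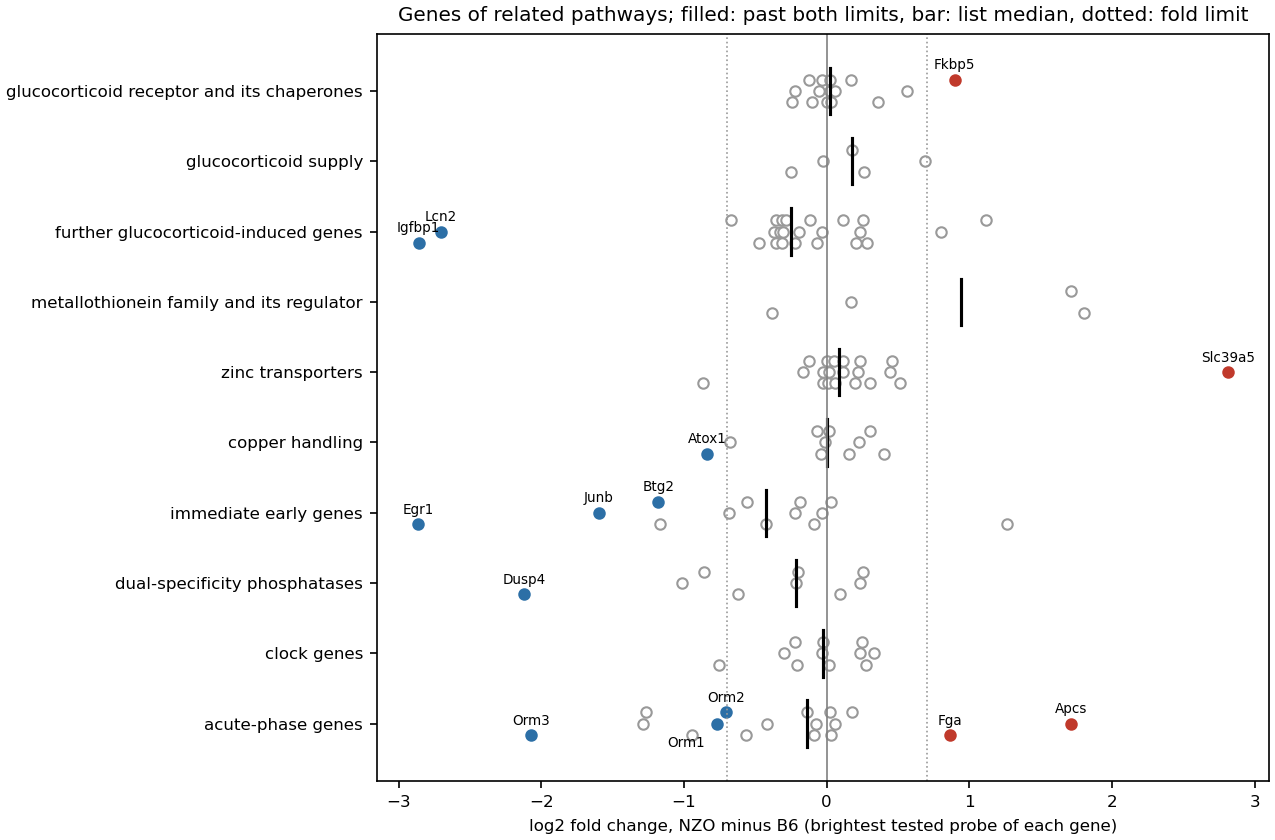
Difference between NZO and B6 (x axis, log2 fold change) for the tested genes of 10 lists, each gene as 1 point through its brightest probe. Named points passed both limits, and the 3 named immediate early genes were lower in NZO, with Egr1 at -2.86.

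Since Dusp1 is also an immediate early gene, genes of that class were set beside it. Of 13 tested, 0 were higher and 3 lower in NZO, beside 9.98% of all genes that passed, and the median was -0.42. Egr1, a zinc finger transcription factor, was at -0.17, -1.88, -0.19 and -3.00 in NZO and 1.22, 2.41, 1.67 and 0.92 in B6 (difference -2.86, SE 0.66, adjusted p = 0.0220). Junb, a subunit of AP-1, differed by -1.60 (SE 0.21, adjusted p = 0.00129), and Btg2, an antiproliferative factor, by -1.18 (SE 0.20, adjusted p = 0.00568). None of the 3 overlapped between the strains, and of all 14302 genes read by their brightest probe 3421 did not overlap. Of Egr1, Junb and Btg2, 1 passed with normexp background correction, Egr1, while Junb was -0.32 (adjusted p = 0.0675) and Btg2 -0.63, under the fold limit. With slide as a fixed term, which rests on NZO mouse 003 against B6 mice 010 and 015, Egr1 was -3.92, Junb -1.64 and Btg2 -1.34. In the deposited table Junb was -0.67, under the fold limit. The call of Egr1 was lost without NZO mouse 003, B6 mouse 010 or B6 mouse 015 (-2.83 to -2.58, adjusted p from 0.0587 to 0.0660), without a filter on dim probes (adjusted p = 0.0551) and in the methods' t-test after adjustment (adjusted p = 0.113). Nr4a1 (-1.17, adjusted p = 0.113) and Myc (1.27, adjusted p = 0.299) did not pass, and Fos, above background on 1 B6 array and no NZO array, was not tested. Among 9 tested phosphatases of the Dusp family 1 passed, Dusp4 (-2.12, adjusted p = 0.0408), which was above background on 1 NZO array and was tested through B6 alone, the strain in which it is high. The value is thus set mostly against background, and it was -0.16 with normexp background correction and -0.32 with slide as a fixed term. Among probes detected on all 8 arrays 0 genes of this list passed. When single mice were left out, the call held only without NZO mouse 003 (for the other 7, -2.34 to -1.65, adjusted p from 0.0538 to 0.108). Dusp2 was -1.01 (adjusted p = 0.0799), and Dusp10 was -0.62, under the fold limit (adjusted p = 0.0297). For Dusp7 a dimmer probe passed at 0.84 and the brightest gave 0.09.

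Of 11 tested clock genes 0 passed limma's adjusted test with the fold limit, 0 had an unadjusted p under 0.05 and 0 passed the methods' t-test, and the median was -0.02. Bhlhe41, above background on 0 NZO and 3 B6 arrays, was not among them. Without NZO mouse 007 and B6 mouse 010 together it was tested, through B6 alone, the strain in which it is high, and was the 1 clock gene that passed. Dbp, an output gene of the clock, was at 1.72, 0.59, 3.56 and 0.54 in B6 and 1.92, 2.33, 1.52 and 1.76 in NZO. B6 mouse 015, the highest for Dbp, was the lowest of the 8 for Arntl, at 0.57 against 1.59 to 2.18 in the others.

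Of 17 acute-phase genes 2 were higher and 3 lower in NZO, beside 9.98% of all genes that passed in either direction. Apcs, serum amyloid P, was higher by 1.71 (SE 0.29, adjusted p = 0.00488), and Fga, the fibrinogen alpha chain, by 0.86 (SE 0.15, adjusted p = 0.00655), with 0.50 on its second probe. With slide as a fixed term, which rests on NZO mouse 003 against B6 mice 010 and 015, Apcs and Fga were 1.31 and 1.06. The call of Fga was lost in the methods' t-test after adjustment (adjusted p = 0.0549) and in the deposited table (0.69, under the fold limit). The orosomucoid genes Orm1 (-0.77, adjusted p = 0.0401), Orm2 (-0.71, adjusted p = 0.0473) and Orm3 (-2.07, adjusted p = 0.0233) were lower. The calls of Orm1 and Orm2 held only without B6 mouse 010, and without each of the other 7 mice they were lost (-0.85 to -0.56 and -0.79 to -0.51). That of Orm3 was lost without NZO mouse 003, 009 or 011 (adjusted p from 0.0520 to 0.0616), and with normexp background correction, where it was -0.88 (adjusted p = 0.0983). All 3 orosomucoid calls were also lost without a filter on dim probes, where 2 genes of this list passed. The same held in the methods' t-test after adjustment, where 1 passed. B6 mouse 015, high for Mt1 and Mt2, was the highest of all mice for Orm1 (7.48), Orm2 (7.74), Orm3 (1.04), Lcn2 (4.28), Saa1 (9.49) and Saa2 (9.41). NZO mice 003 and 011, the highest for Mt2 and the brighter Mt1 probe, had 7.31 and 6.75 for Saa1 and -2.71 and -2.58 for Orm3. Within NZO, mouse 003 was the highest for Saa1, Saa2 (7.39) and Orm1 (6.27), and mouse 007 for Orm2, Orm3 and Lcn2. A link of these genes to the metallothioneins was not tested. Orm1, Orm2 and Orm3 are close copies of each other, as are Saa1 and Saa2, and their probes may bind more than 1 of them.

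Markers of other cells also differed between the strains, and in whole liver fewer cells of a type and less RNA per cell cannot be told apart. Over all genes 9.98% passed in either direction. Of 5 markers of Kupffer cells and macrophages, none at background, Clec4f (-1.13, adjusted p = 0.000851) and Marco (-1.83, adjusted p = 0.0114) were lower in NZO. Adgre1 (-0.63, adjusted p = 0.0157) and Cd68 (-0.42, adjusted p = 0.0445) were under the fold limit, and Lyz2 had the opposite sign (0.41, interval 0.07 to 0.75, adjusted p = 0.109). Their summed signal was 26.9 to 32.0 in NZO and 51.3 to 85.5 in B6, highest in B6 mouse 015, and Clec4f was the most abundant. Of 4 red blood cell markers, none at background, Hba-a1 (1.00, adjusted p = 0.0183), the most abundant, and Alas2 (0.90, adjusted p = 0.00230) were higher in NZO, with sums of 293 to 470 against 155 to 208. Neither sum overlapped between the strains, nor did the level of Fkbp5, and their part in its difference was not tested.

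In the neutrophil list Camp was higher in NZO (1.85, adjusted p = 0.0254), while S100a8 was -0.03 (adjusted p = 0.973) and S100a9 -0.20 (adjusted p = 0.826), with sums of 3.78 to 7.83 in NZO and 2.18 to 8.99 in B6 and S100a9 the most abundant. In the list of T, NK and NKT cells Il2rb passed (-1.29, adjusted p = 0.00695), but it was above background on 3 NZO arrays and was tested through B6 alone, the strain in which it is high. Cd3g had the same sign and did not pass (-0.84, interval -1.47 to -0.21, adjusted p = 0.0847). It was above background on 2 NZO arrays and was likewise tested through B6 alone. Cd3e was 0.33 (adjusted p = 0.577) and Nkg7 -0.17 (adjusted p = 0.559). Of the 4 tested markers, 2 had an unadjusted p under 0.05. The list had sums of 7.56 to 16.3, highest in NZO mouse 007, and 6.91 to 10.5, and Cd3e was the most abundant. In the cholangiocyte list Sox9 was lower (-1.46, adjusted p = 0.00886), with sums of 0.472 to 0.768 and 1.14 to 1.53 and Krt19 the most abundant. The lists of sinusoidal endothelium (47.0 to 63.4 and 39.7 to 42.4, mostly Stab2) and stellate cells (41.0 to 51.4 and 54.7 to 64.0, mostly Dcn) had 0 markers past the limits in limma's adjusted test, and 2 in each had an unadjusted p under 0.05. Those of the endothelium had opposite signs, with Stab2 at 0.48 (adjusted p = 0.00889) and Lyve1 at -0.63 (adjusted p = 0.0241), both under the fold limit, and Pecam1 was -0.22. For adipocytes it was 0 and 1 (565 to 644 and 409 to 481, mostly Car3, which hepatocytes also express), with Adipoq, Plin1 and Lep above background on no array. For the exocrine pancreas it was 0 and 0 (1.36 to 2.30 and 1.29 to 1.75, mostly Ctrb1), with 4 of 6 markers above background on no array. By the methods' t-test with the fold limit 0 markers of these 4 lists passed. The sums of the endothelial, stellate, cholangiocyte and adipocyte lists did not overlap between the strains, and the part of these cells in the results was not tested.

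**Figure D5:**
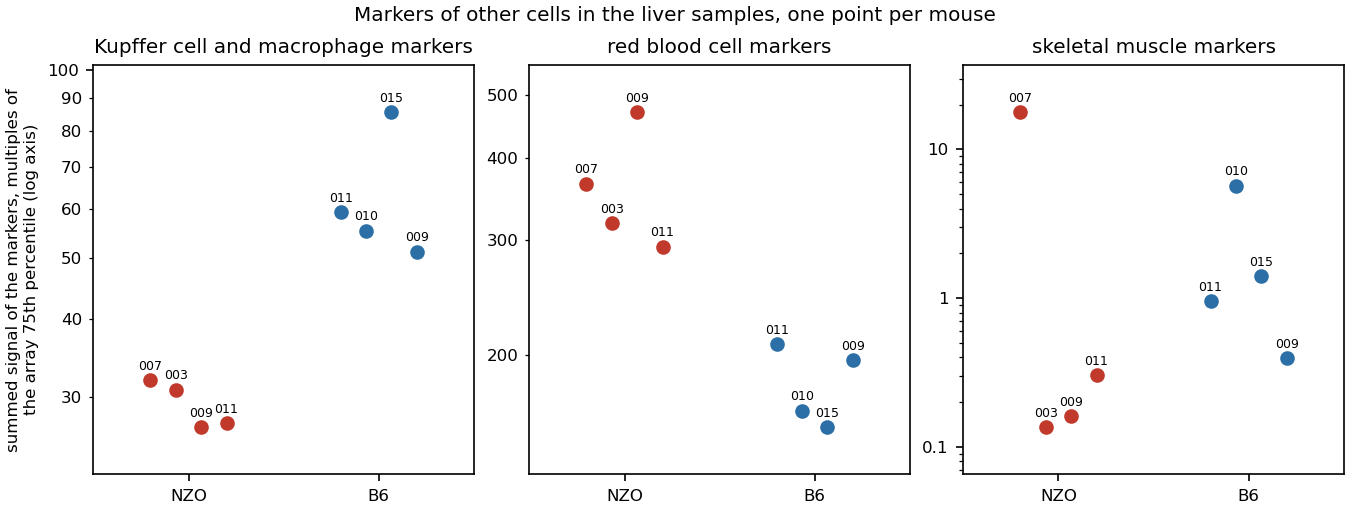
Summed signal of marker genes in each mouse (y axis, multiples of the 75th percentile of the array, log axis; NZO and B6, 4 mice each). The sum of the Kupffer cell markers is lower and that of the red blood cell markers higher in all 4 NZO mice than in any B6 mouse, although the Kupffer cell marker Lyz2 alone had the opposite sign (0.41), and skeletal muscle markers are highest in NZO mouse 007 (17.7) and B6 mouse 010 (5.70).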

How the data were processed

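Total RNA of liver from 4 NZO and 4 B6 mice was labelled with Cy3 and hybridised to 8 single-colour Agilent arrays, 1 per mouse, so that the replicates are separate mice. Per the file headers the authors extracted spots with Agilent Feature Extraction 11.0.1.1, whereas the submitters' processing notes name version 9.1. The deposited scanner files hold the processed signal as intensity, already corrected for background. The deposited table holds intensities that equal the raw median signal and are not scaled between arrays, and log2 of them was used here.

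Control spots and outlier spots were left out, log2 of the processed signal was centred on the 75th percentile of each array, and probes were kept separate. Probes that all 4 mice of a strain showed well above background, in 1 strain or both, were tested (27623 of 55681) with limma 3.58.1 (R 4.3.3; lmFit and eBayes, two-sided, Benjamini-Hochberg over all of them), after the procedure had been tested on simulated data. A probe passed at an adjusted p of at most 0.05 and a log2 fold change of at least 0.7. The number of arrays limits the precision. Lists used the brightest tested probe of each gene. Named were all member probes, list genes that passed or were needed to describe a list, and the 3 genes most correlated with each member, of which 1 is not reported here. Members and lists were chosen with earlier results of these data known. Alternatives changed background correction, scaling, filter, slide and scan day terms, a block by mouse number and the methods' t-test, and left out each mouse. Leaving out NZO mouse 007 and B6 mouse 010 together was chosen after seeing the data. Of the 55681 probes, 31399 were matched to a RefSeq gene. Files give positions in mm9, promoter sequences are in GRCm38.p6, and neither was converted.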

Additional observations from a re-analysis of the deposited data

Results flagged for a closer look

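In 46 groups of 4 mice, 1 mouse stood apart from the other 3 in 3 cases, by a gap whose share of the group's range exceeded Dixon's 95% critical value, and chance alone gives about 1 in 20. Mt1 (A_66_P111660) was 5.68 in B6 mouse 015 and 3.57 to 3.93 in the other B6 mice. Orm3 was 1.04 in B6 mouse 015 and -1.18 to -1.15 in the other B6 mice. Atox1 was 6.55 in NZO mouse 009 and 6.77 to 6.81 in the other NZO mice.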

How the results depend on the processing

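All 10 member probes were refitted under 23 alternatives each. Fkbp5, Dusp1, Zbtb16, Mt2 and the brighter Mt1 probe kept their direction in all of them. The call of Fkbp5 held in 20 and was lost in the deposited table as given, in the methods' t-test after adjustment (adjusted p = 0.0660) and with the mouse number as a block. The numbers 009 and 011 occur in both strains but are different mice, and the deviations of the same-numbered mice correlated at -0.29 and -0.03. A block by mouse number compares the strains through mice 009 and 011 of each strain alone. With mouse number as a replicate block, 206 probes passed in place of 2656 (72 higher, 134 lower), with 0 member probes and 0 list genes, Fkbp5 was 0.60 (adjusted p = 0.158) and Tsc22d3 turned to 0.76.

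With normexp background correction 1199 probes passed (616 higher, 583 lower), with slide as a fixed term 1487 (498 higher), and with the methods' t-test after adjustment 1720 (890 lower). The deposited table gave 576 higher, and probes detected on all 8 arrays gave 959 lower. Member probes that passed numbered 3 with limma's unadjusted p, 2 with the methods' t-test unadjusted and 0 with it adjusted. Over all probes tested these settings gave 3383, 2899 and 1720. List genes numbered 8 without a filter, 23 with limma's unadjusted p and 6 with the adjusted t-test. Without each mouse in turn, member probes ranged from 1 to 2 and list genes from 9 to 13.

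Small differences turned. For the brighter Nr3c1 probe they were -0.00383 with normexp, -0.0499 with quantile normalization, -0.0238 with the percentile over detected probes, -0.16 in the deposited table, -0.00273 with scan day as a term and -0.0373 to 0.126 without single mice. For the other Nr3c1 probe they were 0.0694 with slide as a fixed term and -0.143 to 0.0274 without single mice. Sgk1 was -0.18 in the deposited table, -0.0424 and -0.618 with slide as a random and a fixed term, -0.17 with scan day and -0.27 to 0.38 without single mice. Tsc22d3 was 0.23 without NZO mouse 007 and B6 mouse 010 and -0.443 to 0.0172 without single mice. The dimmer Mt1 probe was -1.33 with slide as a fixed term and -0.0716 to 1.08 without single mice. The highest value over all alternatives was 2.33 for this probe and 1.04 for Sgk1, both with mouse number as a replicate block. The cause was not tested.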
